A study of Cricetulus griseus with 16 samples.

Results

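The 7 genes described here encode the FOS and JUN proteins of the transcription factor AP-1 (activator protein 1). They are Fos, Fosb, Fosl1 and Fosl2 on the FOS side and Jun, Junb and Jund on the JUN side. They were chosen by name, with letter case ignored, from the 20824 genes of the count table, and each of the 7 names was found in 1 row. RNA of the Chinese hamster ovary line CHO (ATCC CCL-61) was sequenced from 16 cultures, lettered A to D in each of 4 groups. The groups were untreated cells grown at 37 °C, cells heated to 40 °C for 1 h, cells heated to 40 °C for 6 h and cells heated to 42.5 °C for 1 h. The cells had been seeded 24 h before heating, and the labels name no other agent and no engineered allele. The groups are cultures of 1 established line, and the labels name no recovery time before collection.

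AP-1 is a dimer of leucine zipper proteins. JUN proteins can pair with each other or with FOS proteins, whereas FOS proteins need a JUN partner to bind DNA. Several members, above all Fos, are immediate early genes, which are transcribed within minutes of a growth factor or a stress without new protein synthesis and whose short-lived mRNAs then decay. Kinases of the ERK, p38 and JNK families act on the factors that drive these genes and on the FOS and JUN proteins themselves, so that mRNA is 1 of several layers of AP-1 activity.

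Between 10504192 and 14668365 reads were counted per library, and 3 counts corresponded to 0.205 to 0.286 CPM (counts scaled to library size). The 37 °C replicate D correlated with replicates A, B and C across 10627 genes with r between 0.9746 and 0.977, whereas every other pair of libraries within a group had r between 0.9934 and 0.9959. Replicate D was therefore left out of the main comparisons, as in the study's own table of changed genes, and calls that depend on it are given with and without it. The mesenchymal gene Vim was at 1820 to 2680 CPM in the 16 libraries, and the collagen genes Col1a1 and Col1a2 had at most 2 and 4 counts. The epithelial gene Cdh1 had 20 to 48 counts, the leukocyte gene Ptprc at most 1, and the endothelial genes Pecam1 and Cdh5 at most 4 and 1. In cultures measured in bulk, fewer cells that express a gene and less of its RNA per cell cannot be told apart.

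Levels are given as CPM scaled by edgeR's TMM (trimmed mean of M values) normalization. They are not corrected for transcript length and are therefore compared between libraries and not between genes. A gene was called higher or lower where edgeR's quasi-likelihood test gave a Benjamini-Hochberg adjusted p under 0.05 over all genes tested and the fold change was at least 1.5 either way. Adjusted p values below come from this test unless another is named, and each log2 fold change is followed by its standard error (SE).

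Heat at 42.5 °C for 1 h gave the largest number of calls. Against 37 °C, 5 of the 7 genes were called higher (Fos, Fosb, Fosl2, Jun and Junb), where 2.83% of the 10470 genes tested were called higher and 4.68% lower. Of the 7, Jun was the 1 gene called higher after 1 h at 40 °C, where 0.276% of 10494 genes were called higher and 0.0572% lower. Fosl2 was the 1 gene called higher after 6 h at 40 °C, where 1.45% of 10499 genes were called higher and 1.66% lower. The 3 comparisons share the same 37 °C libraries, so they are not independent of each other. For reading the single genes below, all heated libraries lay above controls A to C for 6.81%, 18.6% and 23.1% of the genes tested after 1 h at 40 °C, 6 h at 40 °C and 1 h at 42.5 °C, and below them for 6.6%, 17.6% and 22.8%. An adjusted p under 0.05 whatever the fold was reached by 1.64%, 29.4% and 43.1%. Fosb passed the filter on low counts at 42.5 °C only through the heated libraries, so it could enter the test only by being high there, and the same holds for Fos.

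**Figure D1:**
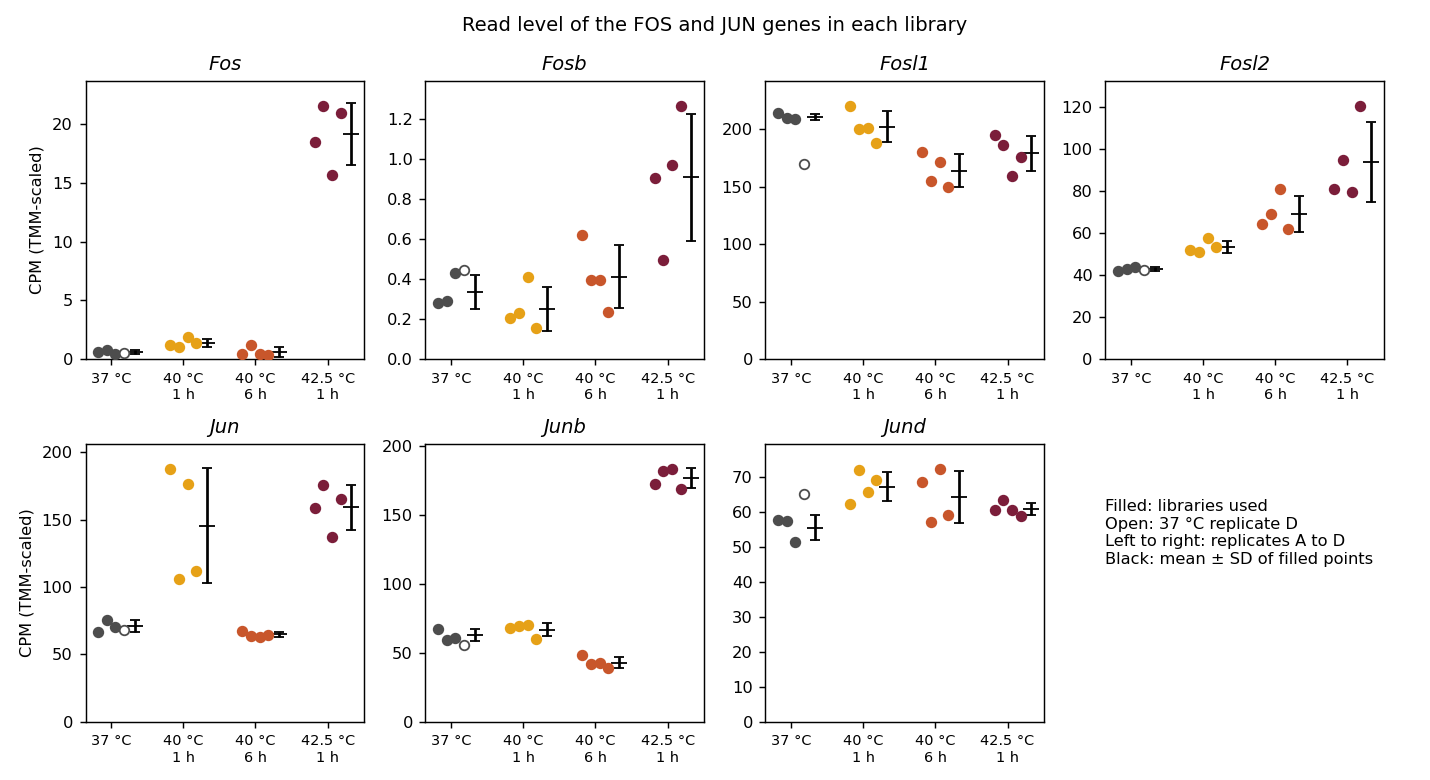
Level of each gene in each library in CPM after TMM scaling (vertical axes, each from 0, with a separate scale for each gene), by heat treatment (horizontal axes). Points are replicates A to D from left to right, open points are 37 °C replicate D, and black bars are the mean ± SD of the filled points. Fos lies between 15.7 and 21.5 CPM at 42.5 °C and at most at 1.88 CPM in every other library, whereas Jun is raised at 40 °C for 1 h and at 42.5 °C.

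Fos (ENSCGRG00001006758), the founding member and a classical immediate early gene, was near the lower end of detection at 37 °C. Replicates A, B and C had 8, 11 and 5 counts (0.561, 0.802 and 0.431 CPM) and replicate D had 6 (0.534 CPM). After 1 h at 42.5 °C the 4 libraries had 205, 218, 162 and 265 counts, or 18.5, 21.5, 15.7 and 20.9 CPM. All heated libraries lay far above all controls, and the means were 0.598 ± 0.188 CPM (SD, n = 3) at 37 °C and 19.2 ± 2.64 CPM (n = 4) at 42.5 °C. Fos rose 31-fold (log2 fold change 4.95, SE 0.21, 95% interval 4.52 to 5.39, adjusted p = 1.91e-10) and ranked 4 of 10470 genes by p. With all 4 controls the log2 fold change was 5 (adjusted p = 1.01e-06).

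At 40 °C Fos remained a low gene. The 4 libraries heated for 1 h had 18, 13, 23 and 18 counts (1.22, 0.998, 1.88 and 1.4 CPM), each above every control. The log2 fold change against 37 °C was 1.16 (SE 0.32, 95% interval 0.46 to 1.85), and it did not pass the threshold (adjusted p = 0.0944, or 0.261 with all 4 controls). Fos passed the filter there only through the heated libraries.

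Fos after 6 h at 40 °C had 5, 15, 5 and 4 counts, or 0.441, 1.19, 0.394 and 0.312 CPM. Replicate B was higher than the other libraries of its group. On the CPM scale replicate A lay within the range of the controls, and replicates C and D lay below all of them. Fos did not pass the filter in that comparison, and a fit without the filter gave a log2 fold change of -0.06 (95% interval -0.97 to 0.86, adjusted p = 0.94).

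The order of Fos levels was therefore 42.5 °C for 1 h, then 40 °C for 1 h, then 37 °C and 40 °C for 6 h, with overlapping libraries in the last pair. Between the 1 h groups Fos was 13.9-fold higher at 42.5 °C than at 40 °C (log2 fold change 3.8, SE 0.16, adjusted p = 2.95e-10). At 40 °C it was lower after 6 h than after 1 h, by 1.2 on the log2 scale with replicate B of the 6 h group inside the range of the 1 h group (log2 fold change -1.2, SE 0.37, adjusted p = 0.0299). Fos passed the filter in that comparison only through the 1 h group, where it was high. That call was lost without replicate C of the 1 h group (log2 fold change -1.03, adjusted p = 0.0934) and without replicate A (-1.10, 0.0579), C (-1.05, 0.093) or D (-0.99, 0.0848) of the 6 h group.

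Fosb (ENSCGRG00001009723), an immediate early gene whose product can replace Fos in the dimer, had the fewest reads of the 7. Controls A, B and C had 4, 4 and 5 counts and D had 5. After 1 h at 42.5 °C the libraries had 10, 5, 10 and 16 counts, or 0.903, 0.493, 0.969 and 1.26 CPM, against 0.281, 0.292 and 0.431 CPM in the controls. The heated libraries were all above the controls A to D on the CPM scale, although replicate B was only slightly so. Fosb rose 2.75-fold (log2 fold change 1.46, SE 0.41, 95% interval 0.59 to 2.33, adjusted p = 0.00934). It did not pass the filter once replicate D was included, and against the 1.5-fold threshold itself (edgeR's glmTreat) the adjusted p was 0.258.

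At 40 °C Fosb had 3, 3, 5 and 2 counts after 1 h and 7, 5, 5 and 3 after 6 h. These are within or close to the range of the controls, and Fosb did not pass the filter in either comparison. Without the filter its log2 fold changes were -0.41 (95% interval -1.61 to 0.8) and 0.28 (95% interval -0.84 to 1.4). A 2-fold lower level lies within the first interval and a 2-fold higher level within the second, and neither was detectable at this depth.

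Fosl1 (ENSCGRG00001003324) encodes FRA1, a FOS protein without the strong activation domain of Fos and a known transcript of growing fibroblasts and mesenchymal cells. Controls A, B and C were at 214, 209 and 209 CPM, and replicate D was lower, at 170 CPM. The groups heated to 40 °C were at 220, 201, 201 and 188 CPM after 1 h and at 180, 155, 172 and 149 CPM after 6 h. The 4 libraries at 42.5 °C were at 195, 186, 160 and 175 CPM. Its libraries after 6 h at 40 °C and at 42.5 °C lay below controls A to C and on either side of replicate D.

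Fosl1 was not called in any of the 6 comparisons, since every fold change was below 1.5. Against 37 °C its log2 fold change was -0.06 after 1 h at 40 °C (SE 0.05, adjusted p = 0.642) and 0.01 with all 4 controls. The value after 6 h at 40 °C was -0.37 (SE 0.06, adjusted p = 0.000206), and with all 4 controls -0.29 (adjusted p = 0.0684). The value at 42.5 °C was -0.24 (SE 0.05, adjusted p = 0.00194), and with all 4 controls -0.16 (adjusted p = 0.269). The lower Fosl1 of these 2 groups therefore passed the adjusted p threshold only without replicate D.

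Fosl2 (ENSCGRG00001014959), which encodes the related FRA2, was the gene whose group means increased in the order 37 °C, 1 h at 40 °C, 6 h at 40 °C and 42.5 °C. Controls A to D were at 41.7, 43.1, 43.8 and 42.4 CPM. After 1 h at 40 °C the libraries were at 52.1, 51.2, 57.5 and 53.3 CPM, and after 6 h at 64.2, 69.2, 81.1 and 62 CPM. At 42.5 °C they were at 80.8, 94.7, 79.7 and 120 CPM, with replicate D the highest. The group means were 42.9 ± 1.04 (SD, n = 3), 53.5 ± 2.8, 69.1 ± 8.52 and 93.9 ± 18.9 CPM (n = 4 each), and neighbouring groups overlapped only between 40 °C for 6 h and 42.5 °C, where replicate C of the former lay above the lowest libraries of the latter.

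Fosl2 rose 1.61-fold after 6 h at 40 °C (log2 fold change 0.69, SE 0.08, adjusted p = 1.26e-05) and 2.19-fold at 42.5 °C (1.13, SE 0.11, adjusted p = 1.63e-06). With all 4 controls both calls held (adjusted p = 0.00258 and 0.000357). It was 1.25-fold higher after 1 h at 40 °C, under the 1.5-fold minimum (log2 fold change 0.32, SE 0.06, adjusted p = 0.00889, or 0.129 with all 4 controls). Between the 1 h groups it was 1.75-fold higher at 42.5 °C (0.81, SE 0.1, adjusted p = 1.89e-05). The steps from 1 h to 6 h at 40 °C (log2 fold change 0.37, SE 0.07, adjusted p = 0.0028) and from 40 °C for 6 h to 42.5 °C (0.44, SE 0.11, adjusted p = 0.00288) were under 1.5-fold. Tested against 1.5-fold itself, the change after 6 h at 40 °C had an adjusted p of 1 and the difference between the 1 h groups one of 0.243.

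Jun (ENSCGRG00001011810), the main partner of the FOS proteins and a target of its own product, was the gene of the 7 called after 1 h at 40 °C. Controls A to D were at 66.7, 75.4, 70.2 and 68.4 CPM. After 1 h at 40 °C the libraries were at 187, 106, 176 and 112 CPM, all above the controls, with replicates A and C well above B and D. In the 6 h group they were at 67.6, 63.5, 63.1 and 64.7 CPM, next to or just below the controls. At 42.5 °C they were at 158, 176, 137 and 165 CPM, within the range of the group heated to 40 °C for 1 h.

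Jun rose 2.06-fold after 1 h at 40 °C (log2 fold change 1.04, SE 0.16, 95% interval 0.69 to 1.39, adjusted p = 0.00414) and 2.24-fold at 42.5 °C (1.16, SE 0.07, 95% interval 1.01 to 1.31, adjusted p = 1.29e-08). With all 4 controls the second call held (adjusted p = 4.65e-05), and the first did not (log2 fold change 1.05, adjusted p = 0.114), although Jun in replicate D lay within the range of the other controls. Tested against 1.5-fold itself, the first also had an adjusted p of 1. The log2 fold change of the 6 h group was -0.13 (SE 0.06, 95% interval -0.25 to -0.01, adjusted p = 0.0862). Jun was 2.25-fold lower after 6 h than after 1 h at 40 °C (log2 fold change -1.17, SE 0.14, adjusted p = 8.85e-05), with no overlap between the libraries. Between the 1 h groups the difference was 0.12 on the log2 scale (SE 0.14, 95% interval -0.18 to 0.43, adjusted p = 0.533), so a difference of up to about 1.35-fold in favour of 42.5 °C lies within the interval.

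The spread of Jun among the cultures heated to 40 °C for 1 h was wide for a gene with so many reads. Its coefficient of variation there was 29.4%, whereas the median over the 1586 genes with a mean at or above that of Jun was 3.95%, and 3 of these genes, Jun included, had a coefficient that large. Replicates A and C, which were high for Jun, were also high for 2 heat shock genes that were picked after their values had been seen. Dnajb1, an HSP40 co-chaperone, was at 125, 52.9, 113 and 59.6 CPM in replicates A to D, and at 26.3 to 32.6 CPM in the 4 controls. Hsph1, a large chaperone of the HSP110 class, was at 874, 449, 860 and 549 CPM, and at 320 to 340 CPM in the controls. Their part in the spread of Jun was not tested.

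Junb (ENSCGRG00001015135), an immediate early JUN gene whose product is a weaker activator than Jun, was highest at 42.5 °C and lowest after 6 h at 40 °C. Controls A to D were at 67.5, 59.3, 60.8 and 55.2 CPM. At 42.5 °C the libraries were at 172, 182, 183 and 169 CPM, more than 100 CPM above every control. After 1 h at 40 °C they were at 67.8, 69.5, 69.8 and 59.7 CPM, overlapping the controls, and after 6 h at 48.1, 42.1, 42.2 and 39.1 CPM, below all of them.

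Junb rose 2.8-fold at 42.5 °C (log2 fold change 1.49, SE 0.05, 95% interval 1.38 to 1.6, adjusted p = 3.49e-11) and ranked 2 of 10470 genes by p. With all 4 controls the log2 fold change was 1.54 (adjusted p = 7.42e-06). The 1 h treatment at 40 °C gave Junb a log2 fold change of 0.09 (SE 0.06, 95% interval -0.04 to 0.23, adjusted p = 0.543). The 6 h treatment gave -0.55 (SE 0.07, 95% interval -0.7 to -0.4, adjusted p = 3.13e-05), a level 1.47-fold lower and just under the 1.5-fold minimum. Without replicate A of the 6 h group Junb passed that minimum (log2 fold change -0.61, adjusted p = 8.67e-06).

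Between the heated groups, Junb was 2.63-fold higher at 42.5 °C than at 40 °C for 1 h (log2 fold change 1.4, SE 0.05, adjusted p = 8.08e-11), the smallest p of the 10441 genes tested. It was 1.56-fold lower after 6 h than after 1 h at 40 °C (-0.64, SE 0.07, adjusted p = 2.15e-05), and all libraries of the 6 h group lay below those of the 1 h group. Tested against 1.5-fold itself, that difference had an adjusted p of 1.

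Jund (ENSCGRG00001010573), the JUN gene usually described as the constitutive one of the family, was at 57.5, 57.3, 51.3 and 64.9 CPM in controls A to D. After 1 h at 40 °C the libraries were at 62.1, 71.8, 65.5 and 69 CPM, above controls A to C and around replicate D. The heated groups had means of 67.1 ± 4.18 CPM after 1 h at 40 °C, 64.1 ± 7.37 CPM after 6 h and 60.7 ± 1.83 CPM at 42.5 °C (SD, n = 4 each). Jund was not called in any of the 6 comparisons, and the widest difference was 1.21-fold. The log2 fold change at 40 °C and 1 h was 0.27 (SE 0.06, adjusted p = 0.0346) without replicate D and 0.22 (adjusted p = 0.58) with it. The value at 42.5 °C was 0.12 (SE 0.06, 95% interval 0 to 0.24, adjusted p = 0.0867), and after 6 h at 40 °C 0.2 (SE 0.08, 95% interval 0.04 to 0.37, adjusted p = 0.055).

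**Figure D2:**
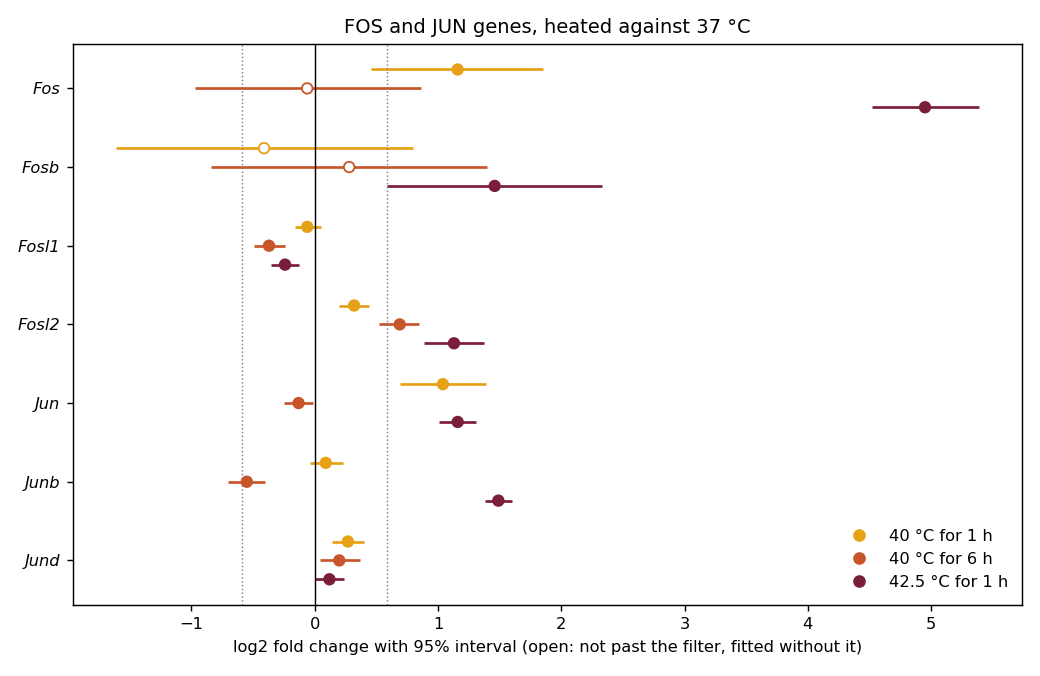
Log2 fold change of each gene (horizontal axis) in each heated group against 37 °C replicates A to C, with its 95% interval as a line and dotted lines at 1.5-fold. Open points are fits without the filter on low counts. Fos at 42.5 °C stands at 4.95, Jun has values of 1.04 and 1.16 in the 1 h groups, and Fosl2 has values of 0.32, 0.69 and 1.13.

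Set against each other, the heated groups had their largest tested differences in Fos. From 40 °C to 42.5 °C at 1 h, 3 of the 7 genes were higher (Fos, Fosl2 and Junb), where 1.75% of 10441 genes were called higher and 3.51% lower. From 1 h to 6 h at 40 °C, 3 of the 7 were lower (Fos, Jun and Junb), where 0.728% of 10439 genes were called lower and 0.556% higher. From 40 °C for 6 h to 42.5 °C for 1 h, 3 of the 7 were higher (Fos, Jun and Junb), where 2.53% of 10427 genes were called higher and 5.72% lower. In that last comparison Fos was 32-fold higher (log2 fold change 5, SE 0.22, adjusted p = 4.26e-11), Jun 2.45-fold (1.29, SE 0.06, adjusted p = 1.51e-10) and Junb 4.1-fold (2.04, SE 0.06, adjusted p = 7.67e-14). In both comparisons with the 6 h group, Fos passed the filter only through the other group, where it was high. These comparisons share heated libraries pairwise. The libraries of the group named first lay above all of the other for 16.3% of genes tested between 42.5 °C and 40 °C at 1 h, 10.9% between 6 h and 1 h at 40 °C, and 20.5% between 42.5 °C and 40 °C for 6 h, and below for 17.8%, 10.4% and 21.3%. The shares with an adjusted p under 0.05 whatever the fold were 36.1%, 18.5% and 47%. Fosb did not pass the filter in any of them, and without the filter it was 3.62-fold higher at 42.5 °C than after 1 h at 40 °C (log2 fold change 1.86, SE 0.45, adjusted p = 0.00159).

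**Figure D3:**
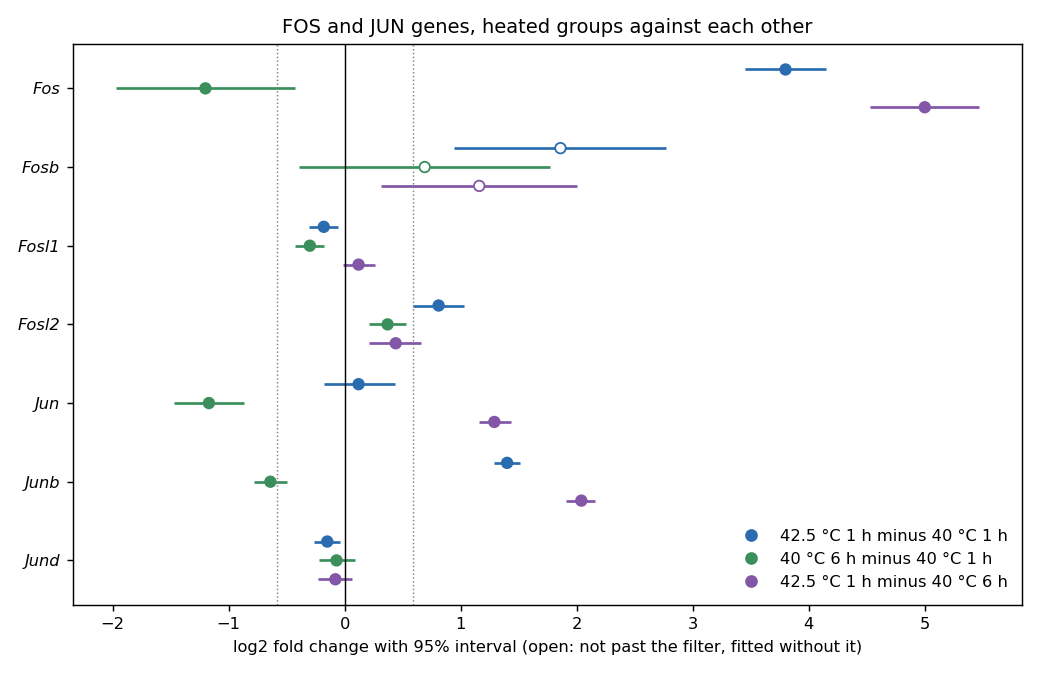
Log2 fold change of each gene (horizontal axis) between heated groups, with its 95% interval as a line and dotted lines at 1.5-fold. Open points are fits without the filter on low counts. Junb has values of 1.4 and 2.04 for 42.5 °C against the 40 °C groups and of -0.64 for 6 h against 1 h at 40 °C, whereas the interval of Jun between the 1 h groups spans 0.

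Ratios of reads within a library set the genes side by side across the groups. The number of Junb reads per Jun read was 0.887 ± 0.11 at 37 °C (SD, n = 3), 0.488 ± 0.14 after 1 h at 40 °C, 0.662 ± 0.044 after 6 h and 1.12 ± 0.15 at 42.5 °C (n = 4 each). The 1 h groups did not overlap, with 0.362 to 0.659 at 40 °C and 1.02 to 1.34 at 42.5 °C. Reads on the 4 FOS genes per read on the 3 JUN genes were 1.35 ± 0.036 at 37 °C (1.13 in replicate D), 0.935 ± 0.099 after 1 h at 40 °C, 1.36 ± 0.059 after 6 h and 0.739 ± 0.057 at 42.5 °C. The 6 h libraries, at 1.3 to 1.43, thus overlapped controls A to C, and both 1 h groups lay below them.

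Within the FOS genes, Fosl1 held 82.8% ± 0.53 of the reads at 37 °C (79.6% in replicate D), 78.6% ± 1.6 after 1 h at 40 °C, 70.1% ± 2.5 after 6 h and 61.3% ± 4.5 at 42.5 °C. Fos held 0.235% ± 0.074 of them at 37 °C and 6.52% ± 0.43 at 42.5 °C. The summed level of the 7 genes was 443 ± 6.4 CPM at 37 °C (402 CPM in replicate D), 537 ± 53 CPM after 1 h at 40 °C, 406 ± 29 CPM after 6 h and 689 ± 39 CPM at 42.5 °C. Transcript lengths differ between these genes, so the ratios are read between groups and are no ratios of molecules. They were not tested.

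**Figure D4:**
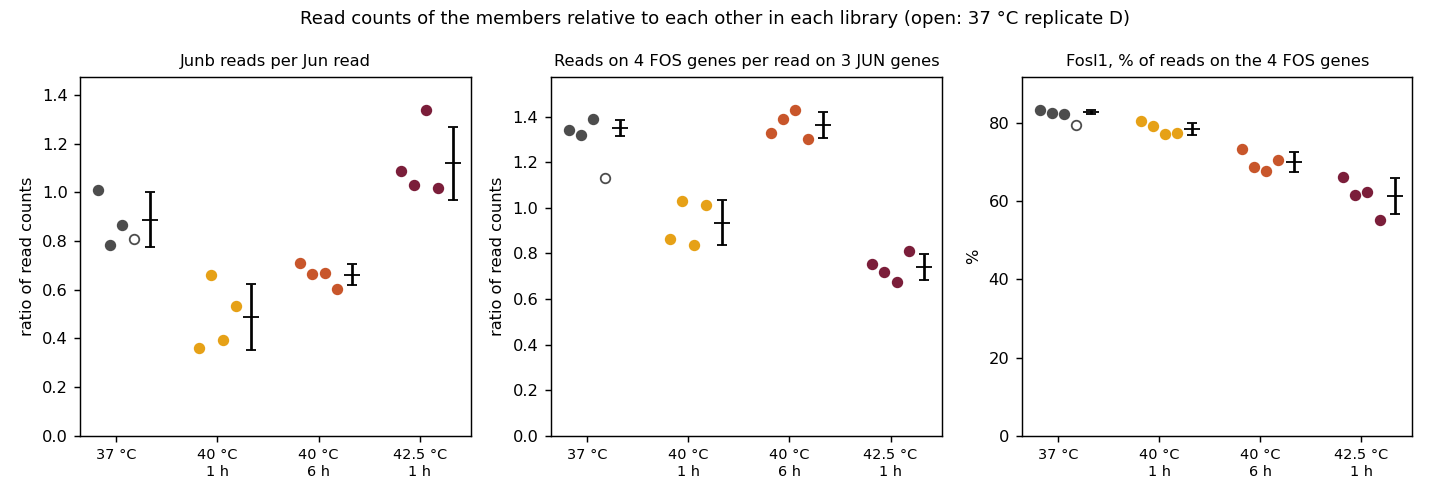
Reads on Junb per read on Jun, reads on the 4 FOS genes per read on the 3 JUN genes, and the percentage of FOS reads on Fosl1 (vertical axes from 0), by heat treatment. Points are replicates A to D from left to right, open points are 37 °C replicate D, and black bars are the mean ± SD of the filled points. Junb reads per Jun read have means of 0.488 at 40 °C for 1 h and 1.12 at 42.5 °C, and the Fosl1 percentage has means of 82.8% at 37 °C and 61.3% at 42.5 °C.

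Across the 15 libraries, log2 CPM of Fos and Junb had r = 0.95, and after each group's mean was taken away r was -0.03. For Jun and Junb the values were 0.75 and 0.18, and for Fosl1 and Fosl2 they were -0.57 and 0.09. The points share their groups and the 37 °C cultures, and these correlations are a description. By the same measure over 10626 genes, those most like Fos were Dusp1 (r = 0.973), Dlx2 (0.972) and Csrnp1 (0.971), and those most like Junb were Itgb1 (0.982), Csrnp1 (0.981) and Egr1 (0.976). Most like Jun were Slc35e4 (0.94), Pvr (0.927) and Ccser2 (0.909), most like Fosl2 were Swt1 (0.977), Trmt1l (0.971) and Rybp (0.965), and most like Fosl1 were Ltbp2 (0.926), Sh2b3 (0.926) and Hmga2 (0.916). Lower values were reached for Fosb, with Abi1 (0.886), Pclo (0.877) and Nr3c1 (0.875), and for Jund, with Timm29 (0.811), ENSCGRG00001012137 (0.775) and Foxc1 (0.765).

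The other genes of the pathway were taken from lists written by role. Among 8 tested zipper proteins that can pair with FOS or JUN proteins, the stress gene Atf3 and 1 other were called at 42.5 °C. Of all genes tested, 2.83% were called higher and 4.68% lower there. Atf3 rose 2.77-fold, from 4.25 to 11.7 CPM (log2 fold change 1.47, SE 0.21, adjusted p = 5.41e-05). Batf2 was called lower (log2 fold change -0.76, SE 0.22, adjusted p = 0.0113), and that call was lost with all 4 controls (log2 fold change -0.69, adjusted p = 0.0638) and without 37 °C replicate C (-0.59, 0.0621). Maff, which encodes a small MAF protein without an activation domain, fell after 6 h at 40 °C from 10.7 to 6.4 CPM (-0.74, SE 0.13, adjusted p = 0.000352), and with all 4 controls the adjusted p was 0.0595. In the same group Atf3 fell by 0.62 (SE 0.19, adjusted p = 0.0204), a call lost with all 4 controls (-0.54, 0.105) and without 37 °C replicate B (-0.52, 0.108) or replicate C (-0.54, 0.0638) or D (-0.55, 0.0553) of the 6 h group. It was also lost in 1 edgeR fit over all 4 groups (adjusted p = 0.0951). The median of the 8 genes was -0.26 there, where the median of all genes tested was 0. After 6 h at 40 °C, 1.45% of all genes tested were called higher and 1.66% lower.

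Of 11 tested genes of the JNK pathway, which phosphorylates JUN proteins, 2 were called at 42.5 °C, both lower. Of all genes tested, 4.68% were called lower there. Mapk8ip3, which encodes a scaffold of the pathway, fell from 35.8 to 11.8 CPM (log2 fold change -1.6, SE 0.1, adjusted p = 1.01e-08), and Map3k11, an upstream kinase, from 53.3 to 30.4 CPM (-0.82, SE 0.07, adjusted p = 5.01e-07). The JNK genes themselves, Mapk8, Mapk9 and Mapk10, which were picked after their values had been seen, had log2 fold changes of 0.04, 0.01 and 0.12 there (adjusted p = 0.628, 0.943 and 0.434). After 6 h at 40 °C they were at -0.29, -0.23 and -0.41 (adjusted p = 0.00793, 0.0154 and 0.0354, or 0.623, 0.0777 and 0.133 with all 4 controls), under 1.5-fold. The upstream kinases Map3k1, Map3k12 and Map3k13, picked in the same way, were in the other direction there, at 0.16, 0.46 and 0.54 (adjusted p = 0.0482, 0.000472 and 0.0298, or 0.145, 0.0111 and 0.072 with all 4 controls). Map3k13 passed the 1.5-fold minimum without replicate D of the 6 h group (0.61, adjusted p = 0.0228). In the 6 h comparison edgeR called 0 of the 11, with 7 at an unadjusted p under 0.05 and 0 called by DESeq2. For the 1 h group at 40 °C edgeR called 0 of the 11 as well, with 3 at an unadjusted p under 0.05 and 0 called by DESeq2. Of all genes tested, 29.4% had an adjusted p under 0.05 in the 6 h comparison and 1.64% in the 1 h comparison. The share of all genes at an unadjusted p was not computed, so the counts of 7 and 3 are no result about the list.

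The ERK and p38 pathways (12 genes tested) and the factors that act on the promoters of these genes, such as SRF, its ELK partners and CREB1 (12 tested), had no calls against 37 °C by edgeR or by DESeq2. Their log2 fold changes lay between -0.55 and 0.43 in the 3 comparisons. The lowest, Mapk7 at 42.5 °C, was called when 37 °C replicate B (-0.6, adjusted p = 0.00284) or replicate A of the heated group (-0.66, 0.000153) was left out. At an unadjusted p under 0.05 there were 1, 4 and 8 genes of the kinase list and 1, 5 and 7 of the promoter list after 1 h at 40 °C, 6 h at 40 °C and 1 h at 42.5 °C. An adjusted p under 0.05, a stricter measure, was reached by 1.64%, 29.4% and 43.1% of all genes tested. The share of all genes at an unadjusted p was not computed, so these counts are no result about the lists. Among 7 genes of mRNA and protein turnover, Zfp36l1, which encodes a protein that promotes the decay of AU-rich mRNAs, rose 1.64-fold at 42.5 °C (log2 fold change 0.71, SE 0.13, adjusted p = 0.000566). Without replicate D of the heated group its log2 fold change was 0.54, under the 1.5-fold minimum.

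Of 15 tested genes known as AP-1 targets, 4 were called at 42.5 °C, all higher. Of all genes tested, 2.83% were called higher and 4.68% lower there. The log2 fold changes of the 15 ran from -0.46 to 2.27, with a median of 0.13. The growth factor gene Hbegf rose from 20.5 to 67.8 CPM (log2 fold change 1.72, SE 0.14, adjusted p = 2.37e-07) and the cytokine gene Il11 from 2.92 to 14.2 CPM (2.27, SE 0.26, adjusted p = 6.55e-06). The cytokine gene Il6 rose 1.84-fold (adjusted p = 0.000252) and Ptgs2, which encodes the prostaglandin synthase COX-2, 2.13-fold (adjusted p = 6.64e-05). Il11 was also called higher after 1 h at 40 °C (log2 fold change 1.13, SE 0.19, adjusted p = 0.0073). With all 4 controls it was not (1.31, adjusted p = 0.127), nor in 1 edgeR fit over all 4 groups (adjusted p = 0.0662). The chemokine gene Ccl2 fell after 6 h at 40 °C from 273 to 98.7 CPM (-1.47, SE 0.16, adjusted p = 5.52e-06), and the median of the list was -0.2.

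Other immediate early genes gave the largest number of calls among the lists. At 42.5 °C, 8 of 22 tested were called higher and 3 lower, where 2.83% and 4.68% of all genes tested were. Dusp1, a phosphatase of the MAP kinases, rose 4.88-fold (log2 fold change 2.29, SE 0.14, adjusted p = 1.49e-08) and Csrnp1, a nuclear factor, 4.53-fold (2.18, SE 0.1, adjusted p = 3.78e-10). The zinc finger genes Egr1 and Egr2 rose 4.08-fold and 4.17-fold (adjusted p = 3e-09 and 9.06e-07). Sgk1, Btg2, Nr4a1 and Nr4a3 were also higher, whereas Ier2 (log2 fold change -1.18, SE 0.15), Gadd45b (-1.05, SE 0.11) and Rhob (-1.21, SE 0.14) fell. With all 4 controls Egr3 (0.62, adjusted p = 0.0181) and Klf10 (0.65, 0.0309) were called higher as well. The list therefore moved in both directions, with a median of 0.3.

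In cells heated to 40 °C for 6 h, 5 of the same 22 genes were called lower and 1 higher, and the median was -0.32. Of all genes tested, 1.66% were called lower and 1.45% higher there. Egr1 fell from 48 to 16.1 CPM (log2 fold change -1.58, SE 0.1, adjusted p = 3.8e-08), Egr3 from 12.9 to 4.38 CPM (-1.56, SE 0.13, adjusted p = 4.16e-07) and Egr2 from 1.69 to 0.693 CPM (-1.29, SE 0.3, adjusted p = 0.00423). Ccn1, a matrix protein gene, fell by 0.66 (SE 0.06, adjusted p = 2.34e-06), and Ier2 fell by 0.66 (SE 0.14, adjusted p = 0.00202), which without 37 °C replicate C was -0.54 and no longer called. Nr4a3 was called higher (log2 fold change 0.78, SE 0.28, adjusted p = 0.0459), with adjusted p from 0.0529 to 0.19 when replicate A or C of the controls or any replicate of the 6 h group was left out. That call was also lost with all 4 controls (adjusted p = 0.0888) and by DESeq2 (0.0963).

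Dusp1 was the 1 gene of the 22 called after 1 h at 40 °C (log2 fold change 0.6, SE 0.12, adjusted p = 0.02). The call was lost with all 4 controls (0.61, adjusted p = 0.241) and without replicate B (0.62, 0.0773) or C (0.54, 0.0934) of the controls or replicate A (0.53, 0.0519) or C (0.5, 0.0647) of the heated group. DESeq2's own test (adjusted p = 0.0543) and 1 edgeR fit over all 4 groups (0.0695) did not call Dusp1 either. Egr1 and Egr2, called higher at 42.5 °C, stood at -0.53 on the log2 scale (SE 0.09, adjusted p = 0.00752, or 0.238 with all 4 controls) and -0.72 (SE 0.27, adjusted p = 0.214) here and were not called. By adjusted p alone, 5 of the 22 genes were lower and 1 higher, where 1.64% of all genes tested passed in either direction. The 5, named after their values had been seen, were Egr1, Klf4, Klf6, Ccn1 and Ccn2, at -0.54 to -0.32, of which Klf4 kept an adjusted p under 0.05 with all 4 controls (-0.53, adjusted p = 0.0225). Klf4 passed the 1.5-fold minimum without replicate A of the controls (-0.59, 0.000174) and Egr1 without replicate B (-0.63, 0.00626).

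**Figure D5:**
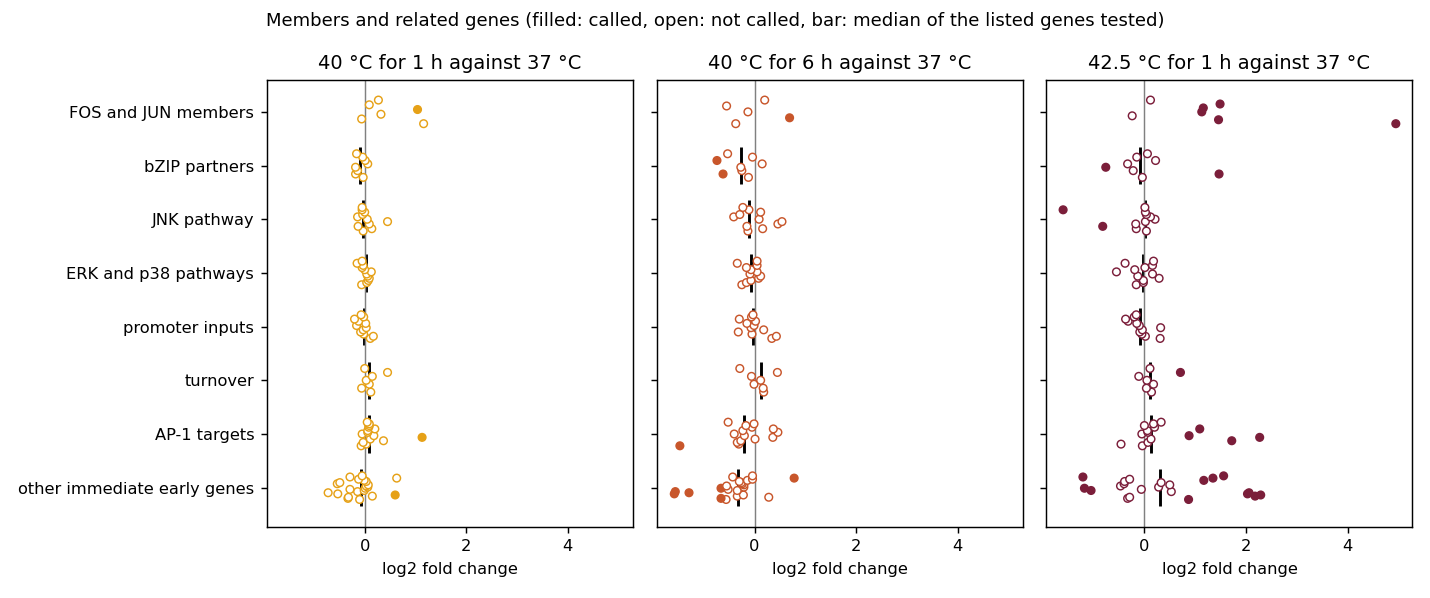
Log2 fold change against 37 °C replicates A to C (horizontal axis, 1 panel for each heated group) of the FOS and JUN genes and of each list of related genes. Filled points are called genes, open points are tested genes that were not called, and black bars are the median of a list's tested genes. At 42.5 °C the immediate early genes spread on both sides of 0, from -1.21 to 2.29, whereas after 6 h at 40 °C their median is -0.32.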

How the data were processed

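The authors isolated total RNA, prepared TruSeq libraries, sequenced paired ends on a NextSeq instrument and counted reads per gene in CLC Genomics Workbench on the genome CHOK1GS_HDv1. They deposited raw counts, without normalization. The annotation release, the strandedness and the handling of reads with several mapping places are not given in the sources used here. The members and lists were chosen with earlier results of these data known.

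The counts of 15 libraries, without 37 °C replicate D, were compared pairwise in edgeR 4.0.16 (R 4.3.3) with filterByExpr, TMM and the quasi-likelihood test, and p-values were adjusted by Benjamini-Hochberg over all genes tested. The procedure was checked on simulated counts. The floor was set at 3 counts per library, which at a depth of 10504192 to 14668365 counts is 0.205 to 0.286 CPM. Intervals are at 95%, from the fit's SE, and p-values weigh a difference between groups against the spread between cultures of 1 line. Alternatives were DESeq2 1.42.0, its size factors, other filters, 1 fit over all groups, a replicate block, glmTreat, adjusted p alone, all 4 controls and each library left out. The 7 members, list genes called against 37 °C and the 3 genes most correlated with a member (log2 CPM, prior count 2) are named. Sequences were not used here.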

Additional observations from a re-analysis of the deposited data

Results flagged for a closer look

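In 28 groups of 4 libraries (7 genes by 4 treatments), the distance of the outermost library from its neighbour was compared with the range of its group. Chance alone places about 1 in 20 such groups past Dixon's 95% limit. Fos in replicate B of the group heated to 40 °C for 6 h, at 1.19 CPM (15 counts), stood apart from the other libraries at 0.312 to 0.441 CPM, with a ratio of 0.852. Hsph1 in the same library, at 1070 CPM, was also the highest of its group (597 to 705 CPM in the others), and its part in the result was not tested. Fosl1 in 37 °C replicate D, at 170 CPM, stood apart from replicates A to C at 209 to 214 CPM, with a ratio of 0.88.

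By edgeR's quasi-likelihood test, the heated groups differed from each other in 9 calls, with 6 members tested in each comparison. Between the 1 h groups 1.75% of all genes tested were called higher and 3.51% lower. The shares were 0.556% and 0.728% from 1 h to 6 h at 40 °C, and 2.53% and 5.72% from 40 °C for 6 h to 42.5 °C. At 1 h, the step from 40 °C to 42.5 °C was 3.8 for Fos, 0.81 for Fosl2 and 1.4 for Junb on the log2 scale. At 40 °C, the step from 1 h to 6 h was -1.2 for Fos, -1.17 for Jun and -0.64 for Junb. That call of Fos was lost when certain single libraries were left out. In both comparisons with the 6 h group, Fos passed the filter only through the other group. From 40 °C for 6 h to 42.5 °C for 1 h it was 5 for Fos, 1.29 for Jun and 2.04 for Junb. Between the last groups temperature and time change together and cannot be told apart.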

How the results depend on the processing

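Of 566 alternative values of the members' log2 fold changes, 541 kept their direction and their side of the threshold, 12 lost the call, 11 gained one and 2 changed sign. Fits that gave a gene no value, as where it did not pass the filter, are not counted. Fosb at 42.5 °C had a value in 11 alternative fits, whereas Fosl2, Jun and Junb had 16 there. Adjusted p alone and glmTreat reuse the fold changes of the main fit, so their direction could not change. The former can only add calls and the latter only end them. Every gain but that of Junb without replicate A of the 6 h group came from adjusted p alone. The sign changed for Fosl1 after 1 h at 40 °C with all 4 controls (0.014) and for Jun between 42.5 °C and 40 °C for 1 h without replicate B of the latter (-0.002, in a range up to 0.273 over the libraries left out), neither of which was called in any fit. The number of members called after 1 h at 40 °C was 1 as reported, 3 by adjusted p alone, 0 by edgeR's glmTreat against 1.5-fold and 0 with all 4 controls. After 6 h at 40 °C it was 1, with 3 by adjusted p alone, 0 by glmTreat and 1 to 2 when a library was left out. At 42.5 °C it was 5, and 3 with at least 10 counts required in every library, which removes Fos and Fosb. There glmTreat ended the call of Fosb (adjusted p = 0.258), and adjusted p alone added Fosl1. With all 4 controls Fosb did not pass the filter. Between the 1 h groups it was 3, and 5 by adjusted p alone. From 1 h to 6 h at 40 °C it was 3, with 5 by adjusted p alone and 0 by glmTreat. By adjusted p alone, 1.64% and 29.4% of all genes passed after 1 h and 6 h at 40 °C, and 43.1% at 42.5 °C. The shares were 36.1% between the 1 h groups and 18.5% from 1 h to 6 h at 40 °C. Where 0 were called, 2 (glmTreat) and 4 (all 4 controls) members after 1 h at 40 °C, 1 after 6 h and 2 between these times had an unadjusted p under 0.05. DESeq2's own test, run without 37 °C replicate D, called 1, 1 and 3 members in these comparisons. For list genes, 1311 of 1403 alternative values kept their side of the threshold, glmTreat ended 39 calls, and these alternatives were chosen after seeing the data.

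The replicate letters showed little pairing of the libraries. Deviations from group means correlated across groups by 0.05 on average in 21 pairs of one letter and by -0.02 in 63 pairs of unlike letters. The highest r was 0.16 for one letter and 0.17 for unlike letters. The labels do not say whether a letter marks a shared batch, and the difference was not tested. With the letter as a replicate block, the number of members called was 1, 1 and 5 against 37 °C and 3 in each comparison between heated groups. Among list genes against 37 °C, the block took Zfp36l1 at 42.5 °C (0.54) and Atf3 after 6 h at 40 °C (-0.56) under the 1.5-fold minimum and Map3k13 after 6 h over it (0.61).

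At 2 to 23 counts, Fosb and, outside 42.5 °C, Fos rest on few reads. Replicate D of the controls decides the call of Jun after 1 h at 40 °C. Reads were not corrected for transcript length, and levels between genes cannot be compared. RNA levels say nothing of FOS and JUN proteins or their phosphorylation.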
